A study of Homo sapiens with 4 samples.

Results

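The genes described here are 53 genes of autophagy, the lysosome and the vacuolar proton pump (V-ATPase), read in U87 cells, a human glioblastoma line, with and without carnosine. They were found by symbol among 58219 genes of the deposited count table, and all 53 were present. Carnosine is a dipeptide of β-alanine and histidine. The 2 carnosine libraries came from cells given fresh medium with 50 mM carnosine for 24 h, and the 2 control libraries from cells given the same medium with 0 mM carnosine for 24 h. All 4 are total RNA libraries depleted of ribosomal RNA, from the line as bought from ATCC, grown in high-glucose medium with serum. The labels do not say whether the 2 libraries of a group came from separate cultures, so that p values measure the spread between these libraries, which may be technical.

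In autophagy, a double membrane closes around cytoplasm or a marked cargo and then fuses with the lysosome, where hydrolases digest the content. Kinase and lipid kinase complexes start the membrane, 2 ubiquitin-like conjugation systems attach LC3 and GABARAP proteins to it, and receptors tie cargo to those proteins. The V-ATPase acidifies the lysosome: its V1 part in the cytosol hydrolyses ATP, and its V0 part in the membrane carries the protons. TFEB, TFE3 and MITF, related factors of the MiT/TFE family, bind E-box motifs before many lysosomal and autophagy genes. In glioblastoma the pathway is studied as a means of survival under nutrient stress and treatment.

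Library totals were 57728762 and 51632970 counts for carnosine, against 71766267 and 59155538 counts for control. Members held 0.805% and 0.740% of the counts in the carnosine libraries, against 0.711% and 0.734% in the control libraries. Levels are CPM, counts scaled to library size with TMM factors, and levels compared between genes are CPM per kilobase of annotated exons. Changes are log2 fold changes of carnosine over control with their SE from edgeR's quasi-likelihood test, Benjamini-Hochberg adjusted over all 16340 genes tested, with a threshold of 0.05. Of 7 markers of the line 6 were tested, 3 above 0 and 3 below. CHI3L1, a secreted glycoprotein of mesenchymal glioblastoma, rose, with 175 and 169 CPM in carnosine libraries, against 116 and 119 CPM in control libraries (0.55, adjusted p 0.0243). VIM, the intermediate filament vimentin, had 5583 and 5629 CPM, against 7420 and 7045 CPM, and did not pass, nor did CD44, with 1317 and 1522 CPM, against 1281 and 1107 CPM. SOX2, a stem-cell factor of many gliomas, had 2 and 0 counts, against 0 and 0. Of 4 macrophage markers CSF1R fell and the others were at or near 0, with values given at the end.

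Of the 53 genes, 50 had counts enough to be tested. After carnosine 3 of them rose: ATP6V0A1, the a1 subunit of the membrane part of the V-ATPase, CTSK, the protease cathepsin K, and GPNMB, a glycoprotein of melanosomes and lysosomes. By edgeR 0 members fell and 47 did not pass; DESeq2 called 1 lower, TFE3, and limma-voom 0. These 3 are 6% of the tested members, beside 3.95% of all tested genes called higher, 4.36% called lower and 8.31% called either way. At an unadjusted p under 0.05 there were 17 of the 50 tested members, 14 above 0 and 3 below, beside 27.4% of all tested genes. Of the 50, 35 had a log2 fold change above 0 (70%), beside 50.1% of all tested genes, with a median of 0.088, beside 0.00090 over all tested genes. In 24 members (48%) both carnosine libraries lay above both control libraries, and in 6 (12%) below, beside 27.8% and 28.8% of all tested genes. Member changes ran from -0.42 to 0.88. In bulk RNA, a change per cell cannot be told apart from a change in the share of cells that express a gene.

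**Figure D1:**
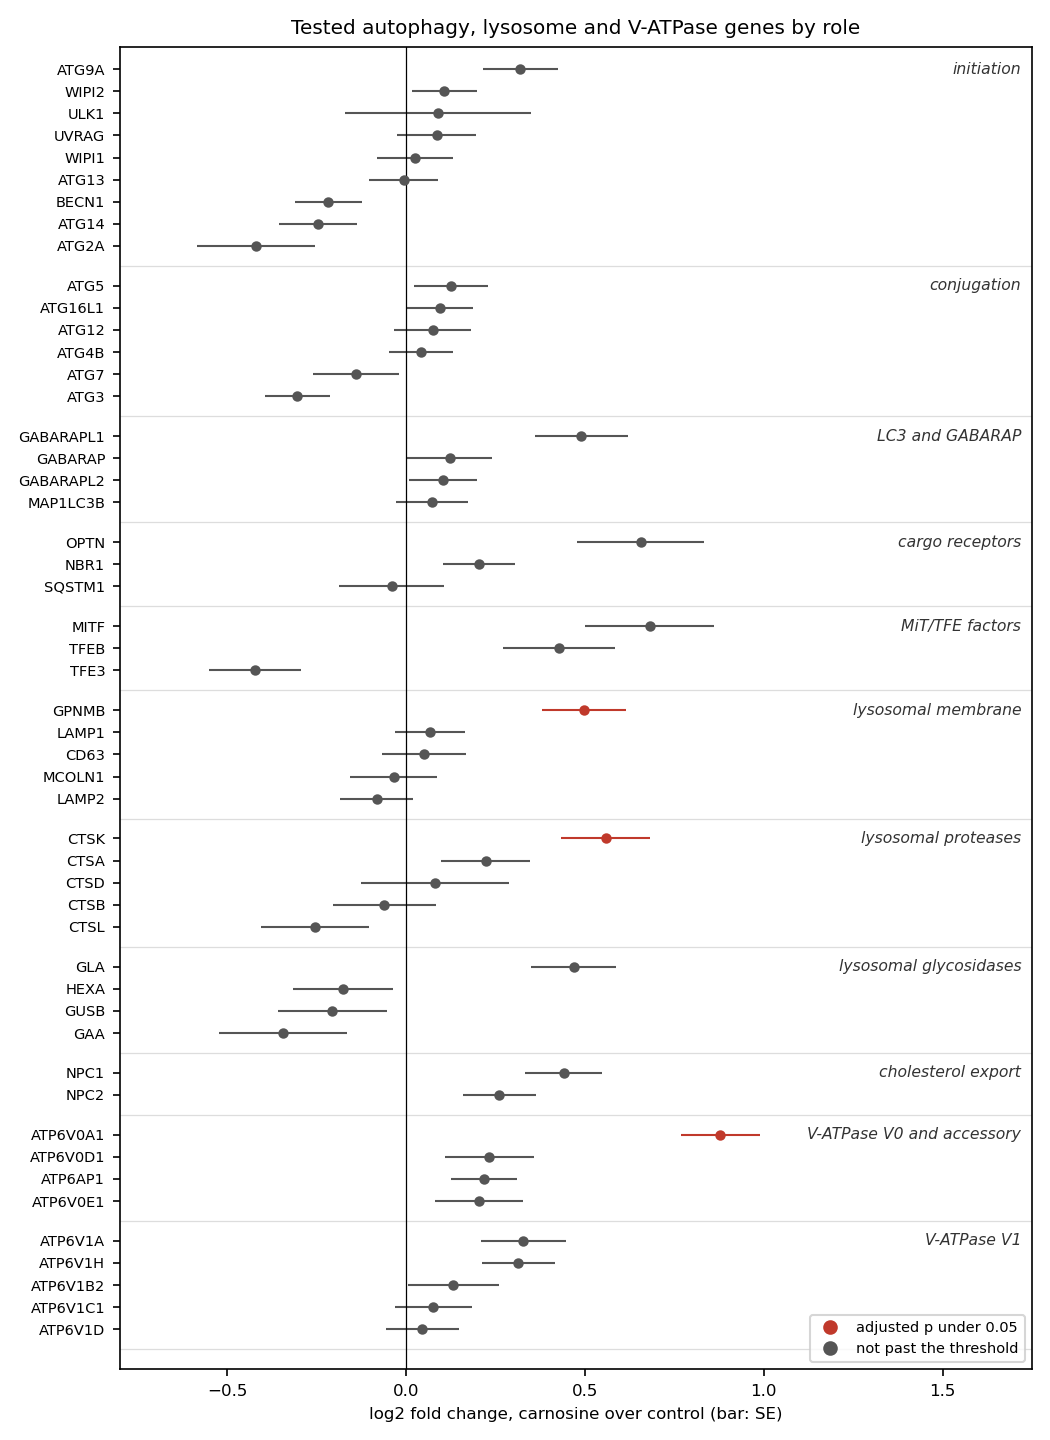
Log2 fold change of carnosine over control (horizontal axis) for the 50 tested members, grouped by role and ordered within each group. Points are the fitted values and bars their SE. The 3 red points, ATP6V0A1 at 0.88, CTSK at 0.56 and GPNMB at 0.50, passed the test, and all 9 V-ATPase members lie right of 0.

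**Figure D2:**
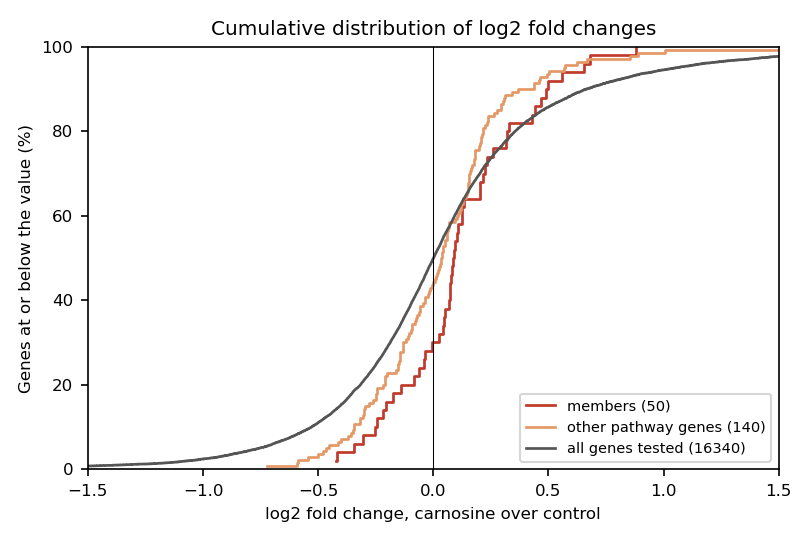
Cumulative share of genes (vertical axis, percent) at or below each log2 fold change of carnosine over control (horizontal axis, shown from -1.5 to 1.5) for the 50 members, 140 other genes of the pathway and all 16340 tested genes. Of the members 70% lie right of 0, beside 50.1% of all tested genes.

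The 9 V-ATPase members were all above 0, while of 18 other V-ATPase genes tested 11 were above 0 and 7 below, with medians of 0.22 and 0.050. ATP6V0A1, which helps form the proton path and steers the pump to its compartment, had 79.2 and 74.5 CPM in carnosine libraries, against 44.9 and 38.7 CPM in control libraries. The groups lay far apart beside the gap within each: the means were 76.9 ± 3.33 and 41.8 ± 4.38 CPM (SD, n = 2 each). This is a log2 fold change of 0.88 ± 0.11 (SE), or 1.84-fold, with an adjusted p of 0.0125. It passed without any 1 of the 4 libraries, at 0.77 to 0.99, but not when tested against a fold of 1.5 (adjusted p 0.221). The gene lies at chr17:42458844-42522611 on the plus strand (GRCh38, GENCODE 29).

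The other 3 V0 and accessory members did not pass. In each both carnosine libraries were above both control libraries, as in 27.8% of all tested genes. ATP6V0D1, the d1 subunit that links V0 to the central stalk, had a log2 fold change of 0.23 ± 0.12 with an adjusted p of 0.283. ATP6V0E1, a small membrane subunit, had 0.20 ± 0.12, and the accessory protein ATP6AP1 had 0.22 ± 0.09 with 92.3 and 93.9 CPM, against 80.2 and 79.9 CPM. ATP6V0E1 was the most abundant V-ATPase member per length, with a mean level of 92.6 CPM per kilobase, against 5.42 for ATP6V0A1.

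Of the 5 V1 members 0 passed in edgeR or DESeq2. In edgeR 2 had an unadjusted p under 0.05, as did 27.4% of all tested genes. ATP6V1A, the catalytic A subunit and the V1 member with the most counts, had 194 and 225 CPM in carnosine libraries, against 175 and 159 CPM in control libraries. Its libraries did not overlap, and its log2 fold change was 0.33 ± 0.12 with an adjusted p of 0.133. ATP6V1H, the regulatory H subunit, had 0.31 ± 0.10 with an adjusted p of 0.106. ATP6V1B2, ATP6V1C1 and ATP6V1D, which belong to the catalytic ring, the peripheral stalk and the rotor, had 0.13, 0.08 and 0.05, and their libraries overlapped between the groups. The 95% intervals of these 3 changes reached no higher than 0.44 and no lower than -0.20. Without control replicate 1 ATP6V1C1 was at -0.02, and without carnosine replicate 2 ATP6V1D was at -0.04, so not every V-ATPase member stayed above 0.

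Some V-ATPase subunits have alternative forms encoded by separate genes, and 21 other V-ATPase genes were counted beside the members. Of the 18 tested, ATP6V0D2 rose and TMEM199 fell. ATP6V0D2, the d2 form known from osteoclasts, kidney and macrophages, had 8.16 and 15.3 CPM in carnosine libraries, against 2.00 and 3.19 CPM in control libraries. Both carnosine values exceeded both control values but were themselves far apart. Its log2 fold change was 2.18 ± 0.35 with an adjusted p of 0.0202, and it ran from 1.66 to 2.57 with 1 library left out, past the threshold each time. TMEM199, an assembly factor of V0, had 22.9 and 21.7 CPM, against 31.3 and 35.9 CPM in control libraries, a change of -0.59 ± 0.12 (adjusted p 0.0313). Without control replicate 2 it no longer passed (adjusted p 0.163), and 24.3% of its exonic bases lie under exons of the opposite strand.

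The mix of a and d subunits lay apart between the groups. Shares of the a subunit were taken per length among ATP6V0A1, ATP6V0A2 and ATP6V0A4 only, and any other a-subunit gene was left out. ATP6V0A1 took 77.8% and 77.2% in carnosine libraries, against 62.3% and 57.0% in control libraries. ATP6V0A2, the a2 form of Golgi and endosomes, took 21.9% and 22.4%, against 37.5% and 43.0%, and its own log2 fold change was -0.36 ± 0.10 with an adjusted p of 0.0780. ATP6V0A4, the kidney form, had 8 and 7 counts, against 3 and 0. ATP6V0D2 took 10.7% and 15.8% of d-subunit CPM per length, against 3.15% and 4.61%, and ATP6V0D1 the rest. For the e subunit the groups overlapped. Beside ATP6V0E2, ATP6V0E1 took 82.4% and 84.1% in carnosine libraries, against 82.1% and 86.0% in control libraries. The shares are descriptions with no test of their own.

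**Figure D3:**
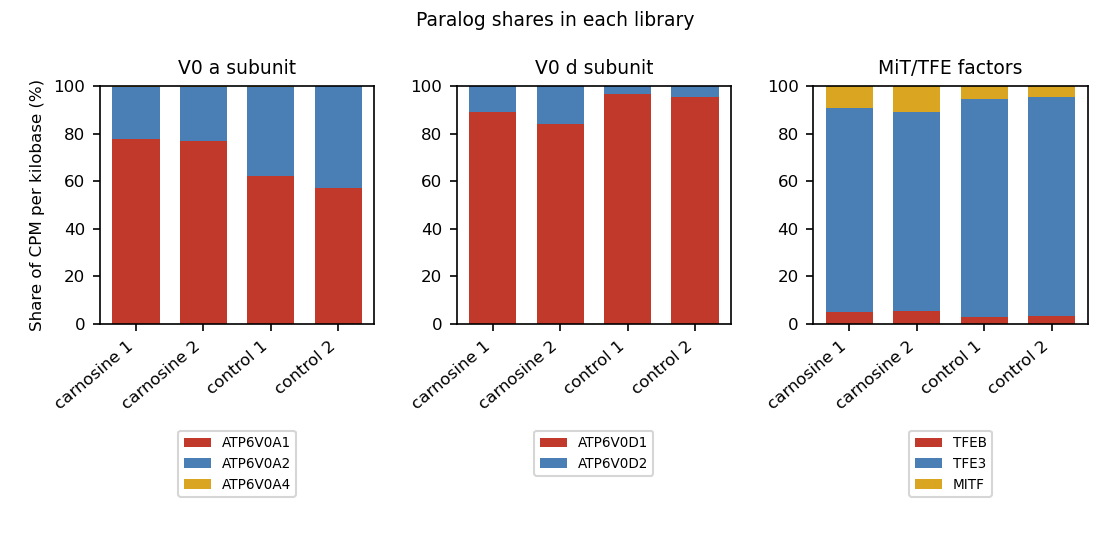
Share (vertical axis, percent) of summed CPM per kilobase held by each gene of the V0 a subunit, the V0 d subunit and the MiT/TFE factors, in each of the 4 libraries (bars). Among the a-subunit genes shown, ATP6V0A1 holds 77.2% or more in carnosine libraries and 62.3% or less in control libraries. ATP6V0A4 is under 0.4% and cannot be seen.

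Of the 3 MiT/TFE factors 0 passed in edgeR. Their groups lay apart, TFE3 lower and MITF and TFEB higher in carnosine libraries. Of all tested genes 28.8% lay apart with carnosine lower and 27.8% with carnosine higher. All 3 had an unadjusted p under 0.05, as did 27.4% of all tested genes, and DESeq2 called TFE3 and MITF. TFE3, the most abundant, had 114 and 98.0 CPM in carnosine libraries, against 154 and 130.5 CPM in control libraries. Its log2 fold change was -0.42 ± 0.13, with an adjusted p of 0.0901. MITF had 20.7 and 21.2 CPM, against 15.4 and 10.7 CPM, a log2 fold change of 0.68 ± 0.18 with an adjusted p of 0.0642. TFEB had 9.03 and 8.28 CPM, against 6.82 and 6.03 CPM, with 0.43 ± 0.16 and an adjusted p of 0.135. TFE3 stayed the main form of these 3. Per length it held 85.6% and 83.8% of their sum in carnosine libraries, against 91.5% and 92.3% in control libraries. MITF held 9.23% and 10.8%, against 5.45% and 4.50%. Transcript levels say nothing of where these factors are in the cell, which is how their activity is chiefly set.

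RefSeq promoter windows (GRCh38.p14, 250 bases before to 50 after a gene's start) could be matched for 43 of the 53 members. The palindrome TCACGTGA, an extended form of the E-box bound by MiT/TFE factors, was in 6 of them (14.0%), beside 1.04% of all 27305 windows. Its core, CACGTG, was in 10 of them (23.3%), beside 7.44% of all windows, and every TCACGTGA holds that core. In LAMP1, a main glycoprotein of the lysosomal membrane, the core occurs 6 times. Stretches of 30 bases around 1 TCACGTGA each, in capitals, are shown to set the letters beside the measured changes, each 5′ to 3′ on the gene's strand.
LAMP1, chr13:113297199-113297228, plus strand, log2 fold change 0.07: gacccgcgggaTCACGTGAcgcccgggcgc
MCOLN1, chr19:7522598-7522627, plus strand, log2 fold change -0.03: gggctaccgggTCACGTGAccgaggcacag
CTSA, chr20:45891298-45891327, plus strand, log2 fold change 0.22: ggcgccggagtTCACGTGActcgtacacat
GAA, chr17:80101493-80101522, plus strand, log2 fold change -0.34: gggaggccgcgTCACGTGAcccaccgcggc
ATP6V0D1, chr16:67481199-67481228, minus strand, log2 fold change 0.23: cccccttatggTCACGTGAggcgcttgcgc
ATG3, chr3:112561940-112561969, minus strand, log2 fold change -0.30: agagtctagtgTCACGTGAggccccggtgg

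Of these 6, 3 were above 0 and 3 below, and 0 were called in edgeR or DESeq2. Over all 198 tested genes with TCACGTGA in the window, 99 were above 0 and 99 below, and 8.59% were called, beside 8.31% of all tested genes. TCATGTGA and its reverse complement TCACATGA, the extended M-box described for MITF, were in 2 of the 43 members, GPNMB and CD63, beside 1.01% of all windows. Over all 95 tested genes with it, 50 were above 0 and 45 below. Of these 3 were called higher and 2 lower (5.26%, beside 8.31% of all tested genes). A match is only a match of letters, and no binding was measured.

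Of the 3 genes that rose, 2 had a matched window, and the 250 bases before their RefSeq start are shown because they differ in these letters: GPNMB holds TCACATGA (capitals) at -63 from the start, and ATP6V0A1 holds none of the motifs searched. The bases before GPNMB hold 38.8% G and C, and those before ATP6V0A1 69.2%. The RefSeq start of GPNMB lies inside the longer GENCODE 29 gene.
GPNMB, chr7:23246525-23246774, plus strand: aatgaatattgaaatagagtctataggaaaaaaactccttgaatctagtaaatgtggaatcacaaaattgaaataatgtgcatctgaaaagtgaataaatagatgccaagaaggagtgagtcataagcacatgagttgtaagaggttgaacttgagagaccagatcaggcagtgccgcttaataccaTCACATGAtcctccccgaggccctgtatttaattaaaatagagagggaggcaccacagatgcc
ATP6V0A1, chr17:42458628-42458877, plus strand: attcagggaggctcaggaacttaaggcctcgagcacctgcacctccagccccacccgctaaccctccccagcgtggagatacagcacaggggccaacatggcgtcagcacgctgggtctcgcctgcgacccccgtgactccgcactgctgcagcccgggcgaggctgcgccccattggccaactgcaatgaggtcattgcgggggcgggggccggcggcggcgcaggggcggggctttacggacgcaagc

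Among 5 members of the lysosomal membrane, GPNMB rose. It had 147 and 150.1 CPM in carnosine libraries, against 96.2 and 114 CPM in control libraries. The carnosine values were close together and the control values less so. The log2 fold change was 0.50 ± 0.12, or 1.41-fold, with an adjusted p of 0.0481. This p is just under the threshold: without control replicate 1 the change was 0.37 (adjusted p 0.289), and without control replicate 2, carnosine replicate 1 or carnosine replicate 2 the adjusted p was 0.0841, 0.0596 and 0.0596. The gene lies at chr7:23235967-23275108 on the plus strand.

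The other membrane members stayed near 0. CD63, a tetraspanin of late endosomes and the most abundant member per length at 290.0 CPM per kilobase, had 738 and 816 CPM in carnosine libraries, against 737 and 764 CPM in control libraries. Its log2 fold change was 0.05 ± 0.12. LAMP1 had 0.07 ± 0.10, with a 95% interval from -0.17 to 0.30. LAMP2, which also has a role in chaperone-mediated autophagy, had -0.08 ± 0.10, and MCOLN1, the lysosomal calcium channel TRPML1, had -0.03 ± 0.12.

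**Figure D4:**
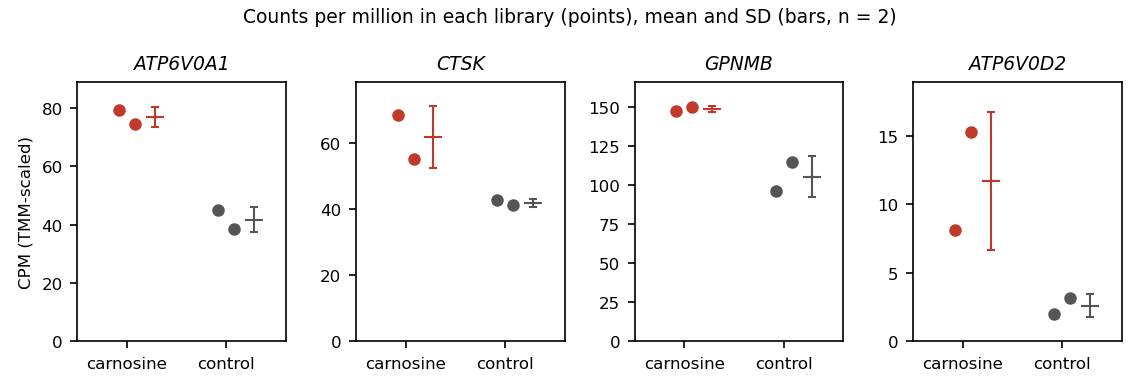
CPM on TMM-scaled library sizes (vertical axis, from 0) of the 3 members that rose and of ATP6V0D2, in the 2 carnosine and 2 control libraries (points), with the mean and SD of each group (n = 2). In all 4 genes both carnosine libraries lie above both control libraries, as in 27.8% of all tested genes. The gap is widest against the spread in ATP6V0A1.

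Of 6 lysosomal proteases, CTSK rose. It had 68.2 and 55.1 CPM in carnosine libraries, against 42.7 and 41.0 CPM in control libraries. The lowest carnosine value was above both control values, and the carnosine libraries differed more from each other than the control ones did. The log2 fold change was 0.56 ± 0.12, or 1.47-fold, with an adjusted p of 0.0418. CTSK passed without carnosine replicate 2 (0.00992) but not without carnosine replicate 1 (0.0841), control replicate 1 (0.0990) or control replicate 2 (0.146), nor with total counts in place of TMM (0.0598). The gene lies at chr1:150796208-150808323 on the minus strand.

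The abundant cathepsins did not pass. CTSL, a cysteine protease, had 285 and 320.4 CPM in carnosine libraries, against 314 and 407 CPM in control libraries. CTSB, another cysteine protease, had a log2 fold change of -0.06 ± 0.14. CTSD, the main aspartic protease of the lysosome, had 398 and 291 CPM, against 381 and 270.3 CPM, so that same-numbered libraries were closer than libraries of 1 group. CTSA, which protects other lysosomal enzymes, had 0.22 ± 0.12 with an adjusted p of 0.302. Per length these ranked CTSL at 140.2, CTSD at 107, CTSB at 92.9, CTSA at 56.3 and CTSK at 27.4 CPM per kilobase. This rank depends on annotated exon length, which was 7.43 kilobases in CTSB, against 3.13 in CTSD and 2.37 in CTSL. By mean CPM over all 4 libraries CTSB was highest at 690, against 335 for CTSD and 332 for CTSL.

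Of the 4 tested glycosidases 0 passed in the main edgeR fit, while GLA had an unadjusted p under 0.05 and was called by DESeq2. GLA was also called in edgeR with upper-quartile or total-count scaling, with no filter and with the replicate block. HEXA, a subunit of β-hexosaminidase and the glycosidase with the most counts, had 68.9 and 52.8 CPM in carnosine libraries, against 66.3 and 71.3 CPM in control libraries, which overlapped. GLA, the α-galactosidase lacking in Fabry disease, had 50.2 and 60.0 CPM, against 41.7 and 37.9 CPM. Its log2 fold change was 0.47 ± 0.12 with an adjusted p of 0.0583. GAA, the acid α-glucosidase that breaks down glycogen, had -0.34 ± 0.18, and GUSB, the β-glucuronidase, -0.21 ± 0.15.

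NPC1 and NPC2, which pass cholesterol out of the lysosome, did not pass. Both were above 0 with libraries apart, as were 27.8% of all tested genes. DESeq2 and limma-voom called NPC1, as did edgeR with RLE, upper-quartile or total-count scaling, with no filter and with the replicate block. NPC1, the membrane transporter, had 329.5 and 353 CPM in carnosine libraries, against 244 and 258 CPM in control libraries. Its log2 fold change of 0.44 ± 0.11 had an adjusted p of 0.0521, just outside the threshold as GPNMB was just inside. NPC2, the soluble carrier, had 105 and 107 CPM, against 83.9 and 93.4 CPM, with 0.26 ± 0.10 and an adjusted p of 0.157.

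**Figure D5:**
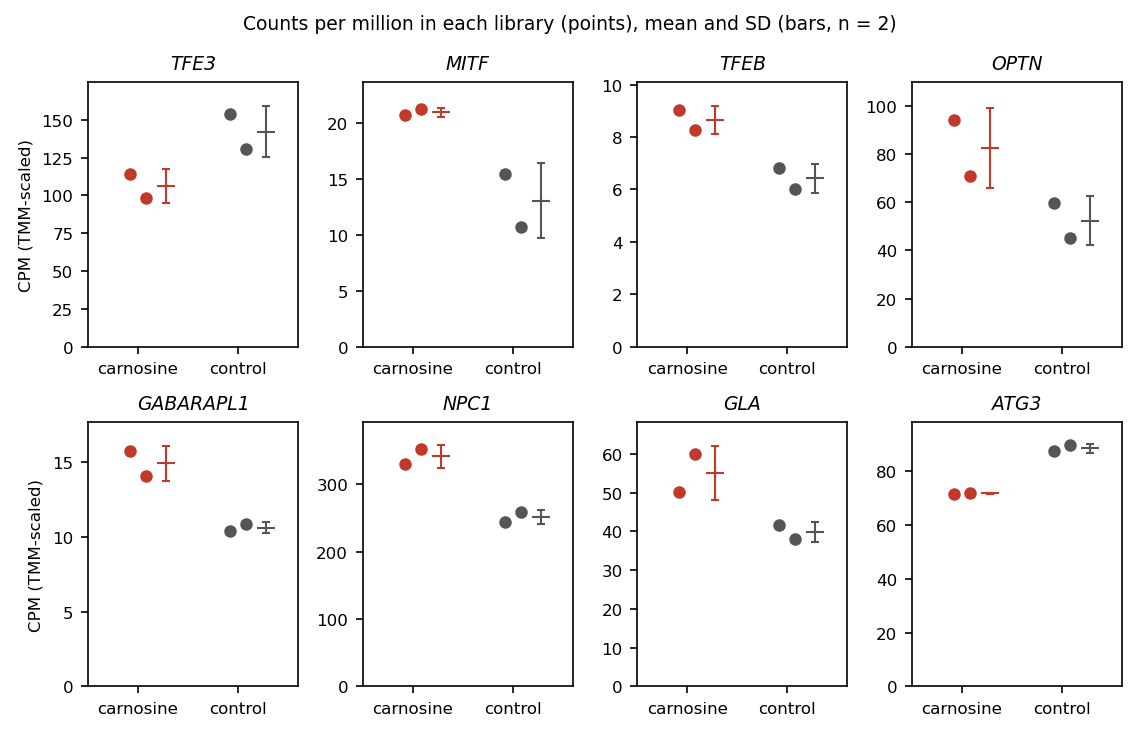
CPM on TMM-scaled library sizes (vertical axis, from 0) of 8 members that did not pass the test, in the 2 carnosine and 2 control libraries (points), with the mean and SD of each group (n = 2). The 8 were chosen after their values were seen, and their groups do not overlap. TFE3 and ATG3 are lower in carnosine libraries and the other 6 are higher. Of all tested genes 28.8% lay apart with carnosine lower and 27.8% with carnosine higher. Adjusted p runs from 0.0521 in NPC1 to 0.135 in TFEB, and ATG9A, ATP6V1H and ATP6V1A, also within that range, are not shown.

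Of 23 autophagy members, 22 were tested and 0 passed, with 15 above 0 and 7 below. At an unadjusted p under 0.05 there were 5 of the 22 in edgeR, 3 above 0 and 2 below, beside 27.4% of all tested genes. DESeq2 called 2, GABARAPL1 and OPTN, and limma-voom called 0. Initiation genes went both ways. ATG13, a subunit of the ULK1 kinase complex, had 124 and 117 CPM in carnosine libraries, against 121 and 120.2 CPM in control libraries. Its values overlapped, and its log2 fold change of -0.01 ± 0.10 turned to 0.00076 with DESeq2's size factors. ULK1, the kinase itself, had 20.7 and 12.5 CPM, against 18.2 and 13.0 CPM. Its 95% interval ran from -0.52 to 0.70, so that a rise or a fall within those bounds remains possible.

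ATG9A, the scramblase whose vesicles seed the membrane, had the highest log2 fold change of the initiation genes at 0.32 ± 0.10 with an adjusted p of 0.105. BECN1 and ATG14, subunits of the lipid kinase complex, had -0.22 ± 0.09 and -0.25 ± 0.11, and ATG2A, a lipid transfer protein, -0.42 ± 0.17 with an adjusted p of 0.161. In these 3 the carnosine libraries lay below the control libraries, as in 28.8% of all tested genes. UVRAG, a further partner of BECN1, and the phosphoinositide readers WIPI1 and WIPI2 had 0.09, 0.03 and 0.11.

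Conjugation genes lay close to 0, with ATG3 farthest from it. ATG7, the E1-like enzyme, had 95.2 and 114 CPM in carnosine libraries, against 109.9 and 120.2 CPM in control libraries, which overlapped. ATG3, the E2-like enzyme that passes LC3 to lipid, had 71.5 and 72.0 CPM, against 87.4 and 89.7 CPM. Its libraries were tight and apart, with a log2 fold change of -0.30 ± 0.09 and an adjusted p of 0.0873. ATG5, ATG12 and ATG16L1, which form the E3-like complex, had 0.13, 0.07 and 0.10, and the protease ATG4B, which trims LC3, had 0.04.

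Of the LC3 and GABARAP genes, whose products sit on the membrane, GABARAPL1 had the largest log2 fold change. It had 15.8 and 14.1 CPM in carnosine libraries, against 10.4 and 10.9 CPM in control libraries, with a log2 fold change of 0.49 ± 0.13 and an adjusted p of 0.0642. MAP1LC3B, the LC3 form most used to follow autophagosomes, had 59.2 and 52.5 CPM, against 53.7 and 52.6 CPM. Its libraries overlapped and its 95% interval ran from -0.17 to 0.31. GABARAP and GABARAPL2 had 0.12 ± 0.12 and 0.10 ± 0.10. Per length GABARAPL1 made up 10.6% and 8.98% of the 3 GABARAP genes in carnosine libraries, against 7.89% and 7.55% in control libraries.

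Among cargo receptors, SQSTM1 (p62), which ties ubiquitin-marked cargo to LC3, was the member with the most counts. It had 1373 and 1079 CPM in carnosine libraries, against 1238 and 1283 CPM in control libraries. The carnosine libraries lay on either side of the control ones, and the log2 fold change was -0.04 ± 0.15, with a 95% interval from -0.39 to 0.31. OPTN, a receptor for mitochondria and bacteria that TBK1 phosphorylates, had 94.2 and 70.9 CPM, against 59.6 and 45.2 CPM. Its groups were apart but wide, with 0.66 ± 0.18 and an adjusted p of 0.0677. NBR1, a receptor for aggregates and peroxisomes, had 0.20 ± 0.10.

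The 3 members without a test had next to no counts. ULK2, a relative of ULK1, and CTSZ, cathepsin Z, each had 0 and 1 counts in carnosine libraries, against 0 and 0 in control libraries. NEU1, the lysosomal sialidase, had 0 in all 4. Of the 10 protein-coding genes nearest to NEU1, none had a mean count of 10, and GENCODE 29 lists 36 NEU1 transcripts outside the primary assembly. ATG16L1, with 18 such transcripts, had 5398 and 4569 counts in carnosine libraries, against 6063 and 4908 in control libraries. The cause of the 0 in NEU1 was not tested, and it was not read as a lack of expression. Near ULK2 and CTSZ, 4 and 7 of the 10 nearest genes had a mean count of at least 10.

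Where exons of different genes overlap, counts of some members may hold reads of neighbours or lack reads of their own. No source used here gives the strand setting, which bears on overlap with the opposite strand only. Over 20% of exonic bases lie under exons of the opposite strand in WIPI1, GABARAP, SQSTM1 and CTSA, and under another gene of the same strand in ATG9A, GABARAP and CTSD. None of the 3 members that rose is among them.

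Other genes of the pathway, 152 in 10 lists, were read the same way. Of 140 tested, 6 rose and 3 fell (6.43%, beside 8.31% of all tested genes), and the median log2 fold change was 0.04. PINK1, the kinase that marks damaged mitochondria, had 128 and 120.0 CPM in carnosine libraries, against 86.6 and 80.3 CPM in control libraries, a log2 fold change of 0.57 ± 0.10 with an adjusted p of 0.0246. TBK1, the kinase that acts on OPTN, had 48.0 and 52.5 CPM, against 31.8 and 35.9 CPM, with 0.57 ± 0.11 and an adjusted p of 0.0300. BNIP3, a mitophagy receptor and hypoxia target, fell to 39.6 and 40.8 CPM, against 52.9 and 54.1 CPM, with -0.41 ± 0.09 and an adjusted p of 0.0418. In PINK1, 39.4% of exonic bases lie under exons of the opposite strand.

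SORT1, a sorting receptor for lysosomal proteins, had 79.2 and 74.9 CPM in carnosine libraries, against 48.9 and 48.2 CPM in control libraries, with 0.67 ± 0.09 and an adjusted p of 0.0159. SLC17A5, which exports sialic acid, had 16.8 and 15.3 CPM, against 9.52 and 8.18 CPM, with 0.86 ± 0.14 and an adjusted p of 0.0212. MFSD8, a membrane protein mutated in a neuronal ceroid lipofuscinosis, fell to 11.3 and 11.0 CPM, against 17.7 and 19.2 CPM, with -0.72 ± 0.12 and an adjusted p of 0.0218. PLA2G15, the lysosomal phospholipase A2, had 64.8 and 62.3 CPM, against 48.2 and 44.2 CPM, with 0.46 ± 0.10 and an adjusted p of 0.0373. The 9 that passed belonged to 5 of the 10 lists. Without control replicate 2 all 9 except ATP6V0D2 lost the call, with adjusted p from 0.0557 in SORT1 to 0.236 in PLA2G15. Without control replicate 1 PINK1 (0.0715), TBK1 (0.142), BNIP3 (0.164) and PLA2G15 (0.105) lost it, without carnosine replicate 1 BNIP3 (0.0876) and PLA2G15 (0.0706), and without carnosine replicate 2 BNIP3 (0.0593). With total counts in place of TMM BNIP3 lost it too (0.0557). Of those that did not pass, RRAGC, a Rag GTPase of nutrient sensing, came nearest, at 0.44 ± 0.11 with an adjusted p of 0.0525.

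GPNMB, CTSK and ATP6V0D2 are also expressed by macrophages and osteoclasts, so macrophage markers were read beside them. CSF1R, a receptor of macrophages, held nearly all of the list, with 9.69 and 8.06 CPM in carnosine libraries, against 24.6 and 23.0 CPM in control libraries. Its fall was -1.42 ± 0.14 in log2 (edgeR, adjusted p 0.00932). Of the 4 macrophage markers only CSF1R had counts enough for a test, and no list of osteoclast markers was read. The summed macrophage list was 9.69 and 8.08 CPM in carnosine libraries, against 24.6 and 23.1 CPM in control libraries. PTPRC, the leukocyte common antigen, had 0 and 1 counts, against 1 and 8, and CX3CR1 had 0 and 0 counts, against 3 and 0. AIF1 was listed at 0, and GENCODE 29 gives it 30 transcripts outside the primary assembly. Of 4 endothelial markers PECAM1 rose while CDH5 and CLDN5 had 0 counts in all 4 libraries, and the summed list was 6.77 and 5.54 CPM, against 2.28 and 2.90 CPM. Of 4 neuron markers 0 passed in edgeR (1 at an unadjusted p under 0.05), RBFOX3 had 0 counts, and the summed list was 23.4 and 20.4 CPM, against 28.3 and 26.1 CPM. The part of such cells in the results was not tested.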

How the data were processed

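Total RNA libraries of U87 cells, 2 with carnosine and 2 without, were read as gene counts. The authors deposited unnormalized whole-number counts for each gene. The submitters' processing notes name HTSeq 0.6.1, HISAT2 2.1.0 and bcl2fastq 2.17.0, with the build hg38. No source used here gives the annotation release, the strand setting or the handling of reads with several matches, which bears on overlapping genes and close copies. Libraries were stranded, per the labels' protocols, and columns of other samples numbered 0.

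Groups came from the labelled dose. Genes were kept by filterByExpr in edgeR 4.0.16 (minimum count 10, total 15; R 4.3.3), scaled by TMM and compared by the two-sided quasi-likelihood F test with group as the only term and 2 residual degrees of freedom, adjusted over all 16340 genes. The SE is approximate (the log2 fold change over the square root of F), and the common dispersion gave a biological coefficient of variation of 0.141. Replicates differed beyond sampling noise, with a chi-square per degree of freedom of 39.7 for carnosine and 25.7 for control. Alternatives were RLE, upper-quartile and total-count scaling, other filters, DESeq2 1.42.0, limma-voom (limma 3.58.1), a test against a fold of 1.5, a replicate block, and leaving out each library. The edgeR step was tested on simulated data.

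Exon lengths, coordinates and overlaps are from GENCODE 29 (GRCh38), matched by identifier; 47 of 53 members had the same version. Promoter windows are from RefSeq. Members, lists and motifs were chosen with earlier results of these data known. Values in each library are given for members past the threshold, for the member of each role group with the highest mean CPM where none passed, and for passing genes of the other lists; other values were chosen after they were seen.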

Additional observations from a re-analysis of the deposited data

How the results depend on the processing

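Directions of all 50 tested members were kept under another filter, limma-voom and the test against a fold of 1.5. Genes called higher and lower numbered 1514 and 1631 of 26103 tested with no filter on low counts. Of 16340 tested, they numbered 1033 and 1178 with DESeq2, and 15 and 8 against a fold of 1.5, beside 645 and 713. With 1 library left out they ran from 235 to 729 and from 270 to 866. Members called higher numbered 5 with upper-quartile factors, 8 with no filter, 8 with DESeq2 and 0 against a fold of 1.5, beside 3, and 1 to 3 with 1 library left out. Members called lower numbered 2 with no filter and 1 with DESeq2, beside 0, and 0 to 1 with 1 library left out. Other pathway genes called higher numbered 10 with no filter, 10 with DESeq2 and 0 against a fold of 1.5, beside 6, and 2 to 7 with 1 library left out. Those called lower numbered 9 with no filter and 0 against a fold of 1.5, beside 3, and 0 to 5 with 1 library left out. The member median was 0.106 with upper-quartile factors and 0.118 with total counts, beside 0.088, and 0.062 to 0.104 with 1 library left out; 32 to 34 members were then above 0.

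The log2 fold change of ATG13 was 0.00076 with RLE factors, 0.0099 with upper-quartile factors, 0.020 with total counts and 0.00079 with DESeq2, and -0.053 to 0.031 with 1 library left out. With 1 library left out, values also crossed 0 in ULK1 (-0.32 to 0.40), WIPI1 (-0.070 to 0.11), ATG12 (-0.045 to 0.18), MAP1LC3B (-0.019 to 0.15), GABARAP (-0.00077 to 0.23), SQSTM1 (-0.23 to 0.12) and CD63 (-0.029 to 0.12). They did so in MCOLN1 (-0.11 to 0.036), CTSB (-0.20 to 0.091), CTSD (-0.16 to 0.35), ATP6V1C1 (-0.022 to 0.17) and ATP6V1D (-0.040 to 0.12). The cause of these differences was not tested, and fewer libraries enter a fit that leaves 1 out; a lone library is then assumed to vary like the other group.

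The labels do not say that replicate numbers pair the libraries. Replicate differences correlated at 0.451 between the groups, over genes. With the replicate block 5767 of 16340 tested genes were called, 2771 higher and 2996 lower, all 1358 earlier calls among them. Of the 50 tested members 16 were then higher and 6 lower, and of 140 other pathway genes 26 were higher and 23 lower. With 2 libraries a group, the SE was largest in ULK1 (0.26) and CTSD (0.21).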
